A study of Mus musculus with 8 samples.

Results

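Natural killer (NK) cell barcodes in which no UMI of Gzmc or Itga1 was found were taken from single-cell expression libraries of mouse leukocytes. A UMI, or unique molecular identifier, marks 1 captured RNA molecule, and a barcode stands for 1 droplet or well, normally 1 cell. Gzmc encodes granzyme C and Itga1 the collagen-binding integrin CD49a, and both are used to mark tissue-resident type 1 innate lymphoid cells. The members were chosen by measured UMI counts. A barcode first had to reach 500 UMIs and 300 genes, with mitochondrial UMIs of 10% or less. It also needed at least 2 UMIs of Ncr1, Klrb1c and Klre1 together, of which at least 1 came from Ncr1 or Klrb1c, and at most 1 UMI of Cd3d, Cd3e and Cd3g, which encode CD3 chains of T cells. It could hold no UMI of the B cell genes Cd79a and Ms4a1, at most 2 UMIs of the macrophage complement genes C1qa, C1qb and C1qc, and no UMI of Gzmc or Itga1. The members numbered 262 of 25172 barcodes that passed the depth and mitochondrial limits.

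The series covers SS mice and control mice, 4 of each at around 12 weeks, and the submandibular gland and the lymph nodes that drain it. The labels do not say what SS stands for and give no strain, allele or treatment. CD45+ leukocytes were sorted from each tissue, and the labels list 8 samples, 1 expression and 1 T cell receptor sample for each combination of genotype and tissue. Whether the animals of a genotype were pooled is not stated in the labels. The 4 expression libraries are named C1 to C4 in the files, and nothing in the labels or files says which of them holds which tissue or genotype. None was therefore assigned to a group, the genotypes and the tissues were not compared, and values are given library by library without a test. Intervals in parentheses are 95% intervals that cover counting error only, exact Poisson for levels and exact Clopper-Pearson for shares.

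NK cells are innate lymphocytes that kill infected, stressed or transformed cells with perforin and granzymes, and that release interferon gamma and chemokines. Their response is set by the balance of activating receptors, which signal through adaptors such as DAP12, and inhibitory receptors for MHC class I, which in mice are mainly Ly49 and CD94/NKG2 proteins. The factors T-bet and Eomes govern their development. Circulating NK cells make Eomes, while type 1 innate lymphoid cells and resident NK cells of tissues, the salivary gland among them, can carry CD49a and CD103.

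The promoters of Ncr1, which helped to choose the members, of Gzma and Gzmb, granzyme genes found in part of them, and of Gzmc, whose absence defined them, are shown because all 4 hold the same 7-letter match. Each runs from 250 bases before to 50 bases after a RefSeq start site in GRCm38.p6, in the direction of the gene, and the capitals mark the letters TGTGGTT, the core bound by RUNX factors, or their reverse complement AACCACA. The windows are chr7:4337465-4337764 on the plus strand for Ncr1 and, on the minus strand, chr13:113100932-113101231 for Gzma, chr14:56262285-56262584 for Gzmb and chr14:56234608-56234907 for Gzmc.
Ncr1: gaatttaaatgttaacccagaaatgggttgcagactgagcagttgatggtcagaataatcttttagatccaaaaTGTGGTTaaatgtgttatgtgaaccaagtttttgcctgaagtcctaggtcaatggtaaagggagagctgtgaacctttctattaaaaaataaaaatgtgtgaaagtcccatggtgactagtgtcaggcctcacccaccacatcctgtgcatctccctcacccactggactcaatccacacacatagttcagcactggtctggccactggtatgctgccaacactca
Gzma: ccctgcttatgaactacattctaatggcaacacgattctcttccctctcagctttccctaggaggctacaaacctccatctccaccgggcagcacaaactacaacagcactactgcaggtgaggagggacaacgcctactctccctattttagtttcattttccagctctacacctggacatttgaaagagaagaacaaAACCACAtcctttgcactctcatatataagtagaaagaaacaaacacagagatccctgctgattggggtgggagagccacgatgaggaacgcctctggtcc
Gzmb: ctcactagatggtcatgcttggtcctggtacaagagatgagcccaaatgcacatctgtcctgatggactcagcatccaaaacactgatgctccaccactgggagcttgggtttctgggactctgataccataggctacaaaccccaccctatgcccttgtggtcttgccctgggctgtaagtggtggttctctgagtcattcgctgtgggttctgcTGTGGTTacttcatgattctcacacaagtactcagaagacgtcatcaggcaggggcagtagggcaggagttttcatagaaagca
Gzmc: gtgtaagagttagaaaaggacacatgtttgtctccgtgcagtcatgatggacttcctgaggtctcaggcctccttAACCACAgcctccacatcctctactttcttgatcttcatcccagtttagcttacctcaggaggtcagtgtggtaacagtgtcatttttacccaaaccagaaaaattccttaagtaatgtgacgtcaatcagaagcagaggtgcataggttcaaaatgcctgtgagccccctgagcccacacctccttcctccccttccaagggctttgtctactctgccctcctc
The first base of the match lay at -176 in Ncr1, -51 in Gzma, -34 in Gzmb and -175 in Gzmc relative to the start site. The start site used for Gzmc lies inside the annotated span of that gene. Searched on both strands, the letters were present in 5.27% of all 32851 promoter windows. Counted by gene, at least 1 window held them in 6.09% of 27025 genes. This was so for 8 of the 17 cytotoxic granule genes with a window, namely Gzma, Gzmb, Gzmc, Gzmd, Gzme, Gzmf, Gzmg and Srgn. Gzmc to Gzmg are close copies of each other, so their matches are not separate observations. This was 1 of 6 motifs searched, and both motifs and genes were chosen with values known. A match is a description of letters and shows neither binding nor control.

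C1 held 163 members, 2.90% (2.48 to 3.38%) of its 5616 kept barcodes. C2 held 65, or 1.28% (0.991 to 1.63%) of 5067, C3 held 18, or 0.211% (0.125 to 0.333%) of 8532, and C4 held 16, or 0.269% (0.154 to 0.436%) of 5957. The share was therefore highest in C1, next in C2, and the intervals of C3 and C4 overlapped. The members of a library summed to 1082937, 470001, 111431 and 86812 UMIs in C1 to C4, with medians of 6340, 7337, 6207 and 4692 UMIs per barcode, so levels in C3 and C4 carry wide intervals and can rest on a few barcodes. No member barcode was a member in another library, and pairs of libraries shared 31 to 85 kept barcodes.

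NK barcodes that met every other condition but held a Gzmc or Itga1 UMI numbered 869, 218, 1 and 6 in C1 to C4. Those without either gene thus made up 163 of 1032 NK barcodes, 15.8% (13.6 to 18.2%), in C1. C2 had 65 of 283, or 23.0% (18.2 to 28.3%). C3 had 18 of 19, or 94.7% (74.0 to 99.9%), and C4 had 16 of 22, or 72.7% (49.8 to 89.3%). A barcode can lack a UMI because few molecules were read. The share was 22.7% in the shallowest of 3 depth classes of C1 and 12.2% among its barcodes of at least 10000 UMIs, and in C2 it was 35.9% and 18.0%. With every NK barcode thinned to 3395 UMIs, the shares were 25.3%, 40.1%, 94.4% and 89.5% in C1 to C4. Members that lack both transcripts and members in which they were missed cannot be told apart.

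The values that chose the members are a description. The 3 NK receptor genes of the rule had medians of 11, 15, 16.5 and 15.5 UMIs per member in C1 to C4, over ranges of 2 to 32, 2 to 37, 4 to 54 and 7 to 34. At the lower edge, 6 members of C1 and 4 of C2 had exactly 2 such UMIs, and 9 and 10 barcodes stood outside with 1. The 6 in C1 held 2171 UMIs of Tyrobp, the adaptor DAP12, per 1000000, whereas the 4 in C2 had no Tyrobp UMI at all. Among all members, Tyrobp was found in 160 of 163 barcodes of C1, 57 of 65 of C2, 18 of 18 of C3 and 16 of 16 of C4, so 8 members of C2 lacked it. A single Cd3 UMI was carried by 12, 9, 1 and 0 members, and 30, 25, 108 and 25 barcodes fell out of the rule for 2 or more. In C3 those 108 outside had 37.8 UMIs of Tyrobp and 166 of the T cell receptor gene Trac per 1000000, while in C1 the 30 outside had 2119 of Tyrobp and 40.6 of Trac. A single UMI of Gzmc or Itga1 kept out 136, 50, 1 and 5 barcodes.

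Levels are written as CPM, a gene's summed UMIs in a class and library per 1000000 of all UMIs there. They are set beside T cell barcodes, which held at least 2 Cd3 UMIs and, by construction, no Ncr1, Klrb1c or Klre1 UMI, and which numbered 548, 2889, 5956 and 3576 in C1 to C4. Ncr1, which encodes the activating receptor NKp46, was at 645 CPM (598 to 694), 906 (822 to 997), 1409 (1197 to 1647) and 1279 (1052 to 1540) in members of C1 to C4. Klrb1c, which encodes NK1.1, was at 588, 647, 996 and 933 CPM. Both genes belong to the rule and were higher in C3 and C4 than in C1 and C2 without overlap of the intervals.

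3 of the marker genes given for NK cells were not in the rule. Eomes, the T-box factor of NK cells (chr9:118478186-118486132), was at 372 CPM (337 to 410), 455 (396 to 521), 359 (256 to 489) and 426 (300 to 587) in members, against 34.3, 211, 119 and 27.7 CPM in T cell barcodes. The intervals of all libraries overlapped, and each library's members lay above its T cells. Klra8, which encodes the Ly49H receptor (chr6:130115226-130129898), was at 827 CPM (774 to 883), 757 (681 to 840), 98.7 (49.3 to 177) and 634 (477 to 825) in members and at most 0.969 CPM in T cell barcodes. C3 stood below the other 3 libraries for this gene, with UMIs in 7 of 18 members. Gzma, which encodes granzyme A (chr13:113093824-113100981), was at 664 CPM (616 to 714), 1155 (1060 to 1257), 8283 (7757 to 8835) and 7107 (6558 to 7691) in members, against 217, 121, 3.25 and 1.49 CPM in T cell barcodes. All 3 were thus found in every library, Klra8 in few members of C3 and Gzma in few of C1 and C2.

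**Figure D1:**
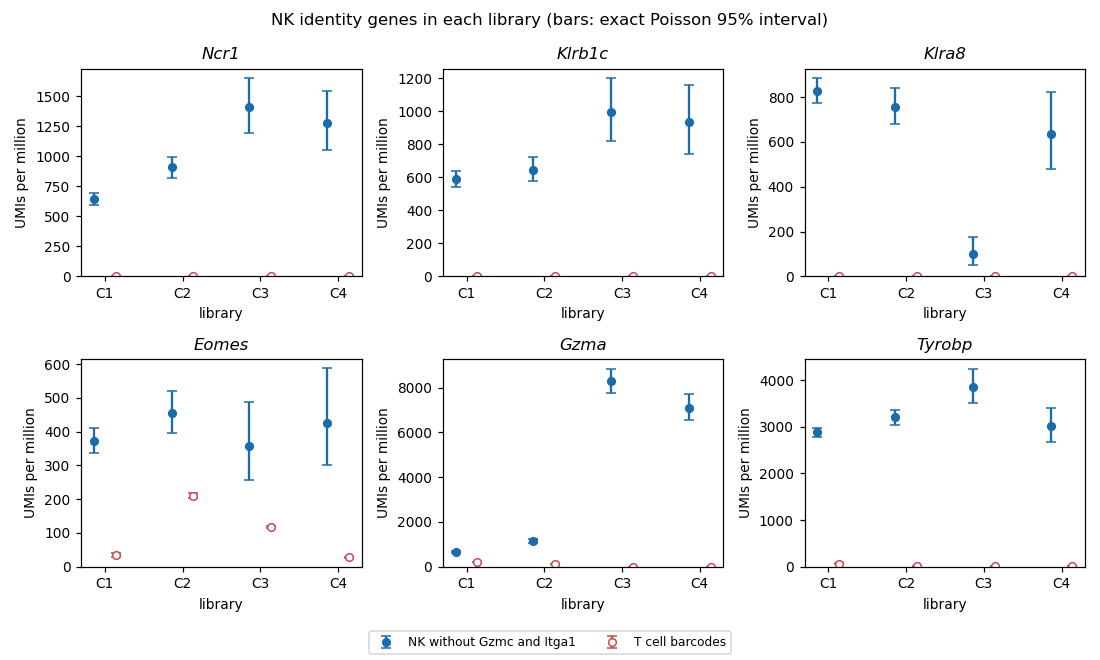
UMIs per 1000000 of 6 NK genes in each of the libraries C1 to C4 (linear axes from 0), in members (filled points, left) and in T cell barcodes (open points, right), with exact Poisson 95% intervals as bars. Ncr1 and Klrb1c are 0 in T cell barcodes by construction; Gzma is at 8283 and 7107 in members of C3 and C4, against 664 and 1155 in those of C1 and C2, and Klra8 is lowest in C3.

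Gzma was found in part of the members and at high levels there. A UMI was found in 49 of 163 barcodes of C1, 30.1% (23.1 to 37.7%), and in 18 of 65 of C2, 27.7% (17.3 to 40.2%). C3 had 12 of 18 with a UMI, or 66.7% (41.0 to 86.7%), and C4 had 14 of 16, or 87.5% (61.7 to 98.4%). With members thinned to 3395 UMIs the shares were 28.0%, 30.4%, 64.7% and 92.3%. Macrophage barcodes, which should lack granzyme A, had a Gzma UMI in 1.45% in C1 at a median of 6295 UMIs and in 0% of 371 in C2 at 8844 UMIs, which allows up to 0.989%. The median member of C1 and of C2 had no Gzma UMI, and the highest had 111 and 76.8 UMIs per 10000. The median member of C3 and C4 had 70.3 and 74.7 per 10000. In C4 a single barcode gave 31.4% of the Gzma UMIs and in C2 26.3%.

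Tyrobp and Fcer1g, genes of adaptors through which activating receptors signal, were found in nearly all members. Tyrobp was at 2877 CPM (2777 to 2980), 3202 (3042 to 3368), 3859 (3503 to 4241) and 3018 (2664 to 3406) in members, against 63.2, 15.1, 17.6 and 11.7 CPM in T cell barcodes. Fcer1g, the Fc receptor gamma chain, was at 2723, 2553, 2387 and 2661 CPM in members. Hcst, which encodes the adaptor DAP10 of NKG2D, was at 686, 585, 897 and 979 CPM. Cd244a, which encodes the 2B4 receptor, stayed between 184 and 224 CPM, and Sh2d1a, the SAP adaptor of that receptor family, was at 117, 138, 126 and 311 CPM. Crtam, a receptor induced on activated lymphocytes, was at 63.7, 160, 44.9 and 23.0 CPM.

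Genes of the granule list ranged from ones found in every library to ones with no UMI. Prf1, which encodes the pore-forming protein perforin, was at 253 CPM (224 to 285), 474 (414 to 541), 494 (372 to 642) and 392 (271 to 547) in members. Its interval in C1 lay below that in C2 and C3. Nkg7, a granule membrane protein needed for degranulation, was at 2084, 3123, 3527 and 3387 CPM in members, against 1052, 3816, 1284 and 268 CPM in T cell barcodes. Gzmb, which encodes granzyme B (chr14:56258836-56262334), was at 294 CPM (262 to 328), 570 (504 to 643), 476 (356 to 622) and 795 (618 to 1006), from 46, 17, 10 and 6 members. A single barcode gave 47.0% of the Gzmb UMIs in C2 and 49.3% in C4, so that these levels rest on few cells. Gzmk, a granzyme of memory T cells, was at 2.77, 0, 8.97 and 46.1 CPM, and Gzmd, Gzme, Gzmf and Gzmg had no UMI in members of any library.

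Chemokines separated the libraries in opposite ways. Ccl5, which attracts T cells and monocytes, was at 3861 CPM (3745 to 3980), 4440 (4252 to 4635), 16144 (15407 to 16908) and 14434 (13645 to 15255) in members. Xcl1, which attracts cross-presenting dendritic cells, was at 3175 CPM (3069 to 3283), 3672 (3501 to 3850), 574 (442 to 733) and 714 (548 to 916). C3 and C4 were thus above C1 and C2 for Ccl5 and below them for Xcl1, although 26.9% of the Xcl1 UMIs of C2 came from 1 barcode, which had 485 per 10000. In T cell barcodes Xcl1 was at 382, 166, 107 and 24.8 CPM and Ccl5 at 3756, 19171, 6447 and 321 CPM. Ccl4, a chemokine of the same family, was at 2054, 2694, 574 and 1163 CPM in members, and Ccl3 at 417, 332, 144 and 380 CPM. The interferon gamma gene, Ifng, was at 115 CPM (96.1 to 138), 85.1 (60.8 to 116), 53.8 (19.8 to 117) and 357 (243 to 507). The C4 value was the highest, from 10 of 16 members.

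**Figure D2:**
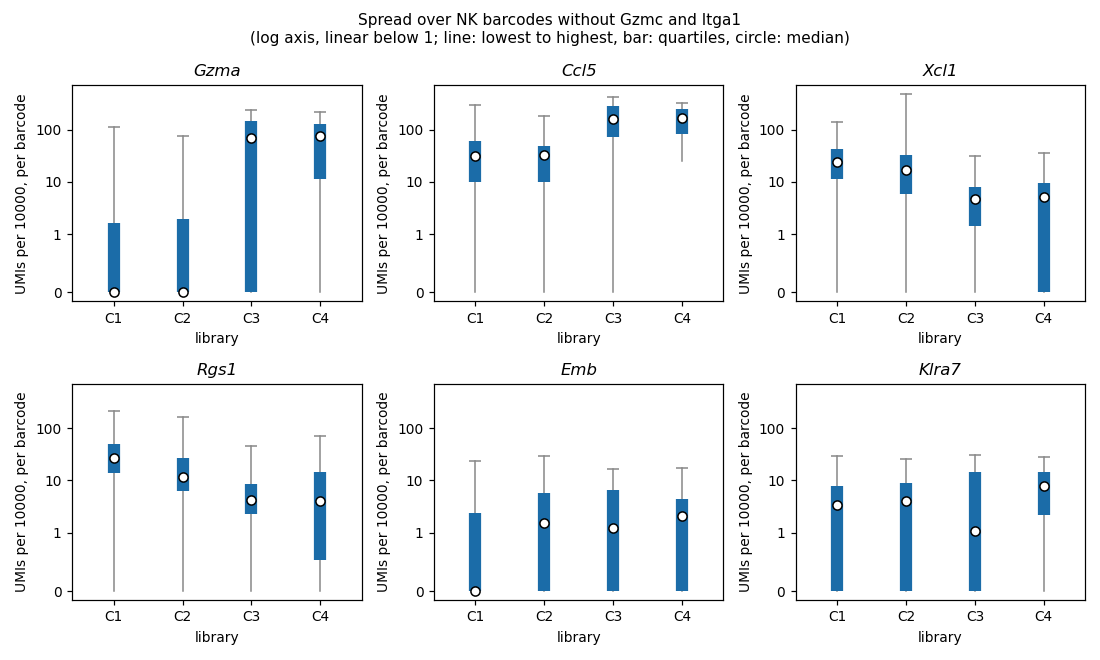
UMIs per 10000 of 6 genes over the members of each library, with the thin line from the lowest to the highest barcode, the thick bar over the middle quartiles and the circle at the median (axis linear below 1 and logarithmic above). The median for Gzma is 0 in C1 and C2 and 70.3 and 74.7 in C3 and C4; single barcodes reach 485 for Xcl1 in C2.

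Genes of the Ly49 receptors were found in most members. Most of these receptors bind MHC class I and inhibit killing, while some, such as Ly49H, are activating. Their summed level covers both kinds, and Klra8, the Ly49H gene, was the highest of them in C1 and C2. The summed level of the Ly49 genes was 2452, 2572, 1660 and 2903 CPM in members of C1 to C4, against 20.3, 3.89, 31.3 and 7.60 CPM in T cell barcodes. Klra4 was at 540, 645, 215 and 887 CPM and Klra7 at 469, 587, 826 and 956 CPM. Klra9 was at 357, 270, 117 and 80.6 CPM, and Klra3 at 132, 183, 278 and 138 CPM. These genes are near-identical copies in a cluster on chromosome 6, so how reads were divided among them is uncertain, while their sum is less affected. Thinned to 3395 UMIs, a member carried UMIs of a median of 3, 3, 2 and 3 Ly49 genes, and 11 of 150, 1 of 56, 2 of 17 and 0 of 13 thinned members carried none.

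Receptors of the CD94/NKG2 and NKR-P1 families summed to 3534, 4085, 5151 and 5875 CPM. Klrk1, which encodes the activating receptor NKG2D, was at 729, 896, 960 and 898 CPM and Klrd1, which encodes CD94, at 597, 591, 781 and 760 CPM. For Klrk1 the interval in C1, 680 to 782, lay below those in C2 and C3, and for Klrd1 all intervals overlapped. Klrc1, which encodes the NKG2A chain that pairs with CD94 to an inhibitory receptor, was at 144 CPM (122 to 169), 117 (88.2 to 152), 592 (458 to 754) and 564 (418 to 746). Its intervals in C3 and C4 lay above those in C1 and C2, with 43, 16, 12 and 8 members carrying a UMI. Among other inhibitory receptors, Tigit was at 221, 298, 135 and 80.6 CPM, Cd160 at 234, 291, 386 and 138 CPM and Lag3 at 10.2, 66.0, 53.8 and 11.5 CPM. Havcr2, which encodes TIM-3, had no UMI in any library, where 3 UMIs would be 2.77 CPM in C1.

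Several genes of the NK maturation list differed between libraries. Emb, which encodes the adhesion glycoprotein embigin, was at 183 CPM (158 to 210), 345 (294 to 402), 386 (279 to 520) and 380 (262 to 534) in members, with UMIs in 72 of 163, 43 of 65, 9 of 18 and 10 of 16 barcodes. C1 lay below the other 3 libraries, whose intervals overlapped. S1pr5, the receptor by which NK cells leave lymphoid organs, was at 11.1, 2.13, 62.8 and 138 CPM, and Zeb2, a factor of terminal NK maturation, at 54.5, 70.2, 126 and 242 CPM. Kit, found on early NK cells, was at 16.6, 40.4, 153 and 46.1 CPM. Ly6c2 was at 35.1, 44.7, 162 and 438 CPM, of which 94.4% in C3 came from 1 barcode.

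CD27 and CD11b, encoded by Cd27 and Itgam, divide mouse NK cells into maturation stages. Cd27 was at 73.9, 121, 171 and 138 CPM and Itgam at 42.5, 46.8, 126 and 161 CPM. Of the members of C1, 49 had UMIs of Cd27 alone, 10 of both genes, 22 of Itgam alone and 82 of neither. In C2 these were 26, 7, 7 and 25 members, in C3 9, 2, 5 and 2, and in C4 2, 4, 5 and 5. Stages cannot be assigned where many members show neither gene. Cx3cr1 and Klrg1, which mark late stages, were at no more than 0.923 CPM and 17.9 CPM in any library.

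Other genes of the residency list were found in members. Rgs1, a regulator of G protein signalling abundant in tissue lymphocytes, was at 3171 CPM (3066 to 3279), 1968 (1843 to 2099), 583 (450 to 743) and 933 (741 to 1160), against 2371, 1416, 159 and 151 CPM in T cell barcodes. The order of the libraries was thus the same in T cells, apart from C3 and C4. Cd69, which holds lymphocytes in tissue, was at 512, 332, 179 and 127 CPM, against 886, 490, 345 and 282 CPM in T cells. Inpp4b was at 169, 48.9, 8.97 and 11.5 CPM and Tnfsf10, which encodes TRAIL, at 135, 104, 26.9 and 0 CPM. Itgae, which encodes CD103, was at 21.2 and 21.3 CPM in C1 and C2, and Zfp683, which encodes Hobit, at 58.2 and 29.8 CPM. Neither had a UMI in members of C3 or C4.

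Among transcription factors, Tbx21, which encodes T-bet, was at 186, 191, 171 and 242 CPM, and Id2, required for NK development, at 563, 972, 879 and 1175 CPM. Klf2, which controls lymphocyte recirculation, was at 689 CPM (640 to 740), 213 (173 to 259), 529 (403 to 683) and 945 (751 to 1172), with C2 below the others. Tcf7, which encodes TCF-1, was at 163, 213, 153 and 230 CPM with overlapping intervals. Il2rb, the shared beta chain of the IL-2 and IL-15 receptors, was at 1256, 1411, 1068 and 1129 CPM. The IL-18 receptor genes Il18r1 and Il18rap were at 54.5, 78.7, 135 and 346 CPM and at 61.9, 87.2, 224 and 288 CPM. Il21r was at 187, 200, 17.9 and 11.5 CPM. Of the migration genes, Cxcr4 was at 145, 140, 8.97 and 46.1 CPM, Itga4 at 149, 164, 305 and 737 CPM, and Ccr2 at 404, 589, 521 and 495 CPM.

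Markers of other cell types were counted without the genes of the rule, whose low levels the choice of members fixed. The 9 T cell markers left summed to 244, 228, 296 and 587 CPM in members, against 2126, 3201, 2410 and 2371 CPM in T cell barcodes, which were themselves chosen on Cd3 genes, and Trbc2, a receptor beta constant gene, gave 113, 97.9, 162 and 380 CPM of it. Cd5, Cd8a and Cd8b1 had no UMI in any library. The 4 B cell markers left summed to 176, 151, 89.7 and 161 CPM in members, nearly all from Ighm, against 88.3, 51.2, 157 and 211 CPM in T cell barcodes. The 5 macrophage markers left summed to 35.1, 12.8, 0 and 11.5 CPM in members, against 110, 72.7, 88.5 and 16.6 CPM in T cell barcodes. Il1rl1, Il5, Il13, Il23r and Il22, which define type 2 and type 3 innate lymphoid cells, were at 0 in all libraries, as was every gene of the granulocyte list. Salivary secretory genes took 0.684% of the members' UMIs in C1, 2.63% in C2 and 0% in C3 and C4, against 2.50% and 2.47% in T cell barcodes of C1 and C2. The median member had 0.624% in C1 and 0.819% in C2, against 0.787% and 1.06% for the median T cell barcode, and 6 members of C2 were over 5%. Their part in the values was not tested.

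NK barcodes without Gzmc and Itga1 were then set against those with either gene in C1 and C2, the libraries with at least 50 members. A gene was called where the ratio of CPM was at least 2-fold in the same direction in both libraries, among 5525 genes with at least 50 UMIs over both classes in each. There were 18 genes higher, 0.326% of those tested, and 30 lower, 0.543%. These are folds between summed counts of 1 library each, with no replicate and no test. The median ratio over all 5525 genes was 0.986 in C1 and 0.985 in C2. Median depth was 6340 UMIs in members and 7049 in the others in C1, and 7337 and 8075.5 in C2. Salivary genes took 0.684% of UMIs in members and 0.613% in the others in C1, and 2.63% and 1.32% in C2.

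Those higher included genes of the maturation, migration and transcription factor lists. Cxcr4, the receptor for CXCL12, was at 145 CPM in members and 31.1 in NK barcodes with Gzmc or Itga1 in C1, a ratio of 4.67 (3.76 to 5.78), and at 140 and 40.1 CPM in C2, a ratio of 3.50 (2.46 to 4.98). Tcf7 had ratios of 4.87 in C1 and 2.23 in C2. Emb had ratios of 3.38 and 2.42, and Il18r1 had 6.05 and 2.51. Socs3, an inhibitor of cytokine signalling, was at 226 and 56.4 CPM in C1 and 217 and 77.3 CPM in C2, ratios of 4.01 and 2.81. The inhibitory receptor gene Lilrb4a had ratios of 2.32 and 2.61, and Tnfsf14, which encodes the cytokine LIGHT, had 2.29 and 2.52. Glipr2, Phactr3, Prr7 and Aff3 were also among the 12 ranked highest, at ratios of 2.31 to 4.14 over both libraries. Of the genes named here, only Cxcr4 and Socs3 had intervals that stayed past 2-fold in both libraries. In C2 the lower ends were 1.72 for Tcf7, 1.97 for Emb, 1.60 for Il18r1, 1.98 for Lilrb4a and 1.56 for Tnfsf14. They were 1.98 for Glipr2, 1.91 for Phactr3, 1.35 for Prr7 and 1.40 for Aff3.

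Those lower included genes of the residency and granule lists. Gzmb was at 294 CPM in members and 2589 in NK barcodes with Gzmc or Itga1 in C1, a ratio of 0.113 (0.101 to 0.127), and at 570 and 1819 CPM in C2, a ratio of 0.314 (0.276 to 0.355), which was 0.180 with no Cd3 UMI allowed. Itgae had ratios of 0.0617 (0.0390 to 0.0928) and 0.202 (0.0953 to 0.380), although 60.0% of its UMIs in members of C2 came from 1 barcode. Cxcr6, a chemokine receptor of resident lymphocytes, had ratios of 0.234 and 0.278, and Inpp4b had 0.437 and 0.221. With a mean over barcodes Cxcr6 was at 0.390 in C1 and Inpp4b at 0.446 in C2. S100a4 and Lgals3, which encode a calcium-binding protein and galectin-3, had ratios of 0.358 and 0.238, and 0.323 and 0.338. Cdh1, which encodes E-cadherin, had 0.372 and 0.195. Igflr1, Susd3, Arnt2, Tnni1 and Vipr2 were also among the 12 ranked lowest, at ratios of 0.192 to 0.382, and 53.6% of the Tnni1 UMIs of C1 members came from 1 barcode. In that order, these genes had only 9, 4, 6, 7 and 4 UMIs in members of C2. Their C2 intervals reached 0.463, 0.781, 0.641, 0.819 and 0.833, so only that of Igflr1 stayed past 2-fold. Arnt2 was at 0.823 in C2 with a mean over barcodes, so that its call was lost.

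**Figure D3:**
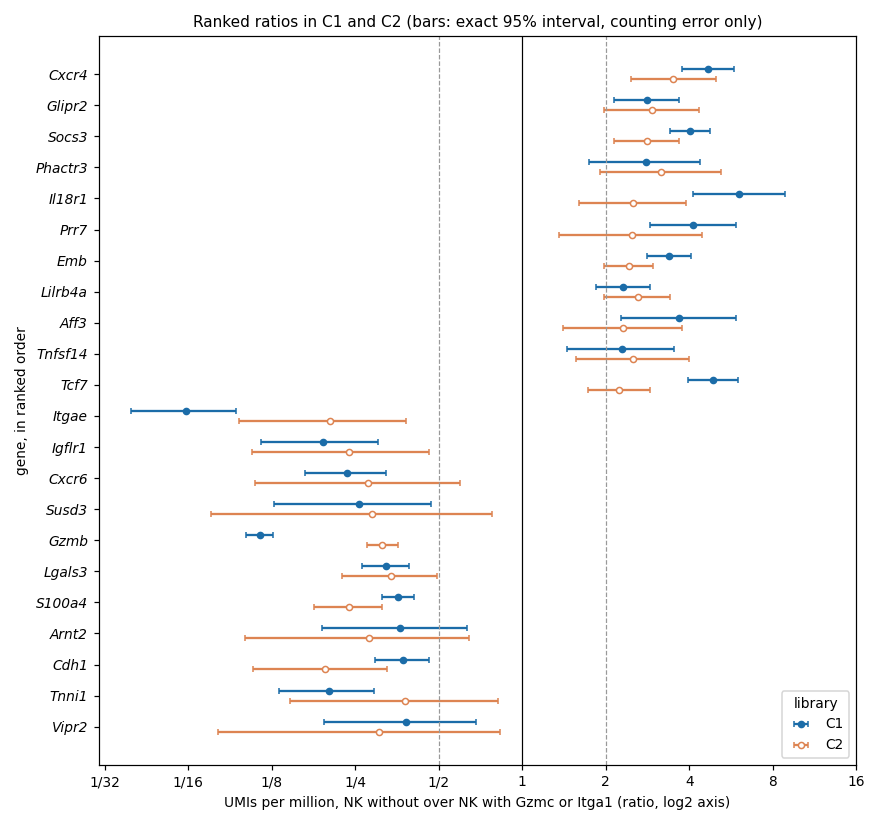
Ratio of UMIs per 1000000, NK without over NK with Gzmc or Itga1 (log2 axis), for 11 of the 12 genes ranked highest and 11 of the 12 ranked lowest, with C1 as filled and C2 as open points, exact 95% intervals as bars and dashed lines at 2-fold. Cxcr4 is at 4.67 in C1 and 3.50 in C2; Itgae is lowest at 0.0617 in C1 and 0.202 in C2.

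Calls are also given by list, and the lists were chosen with earlier results of these data known. Of all 5525 genes tested, 0.326% were called higher and 0.543% lower. Of 9 maturation genes that could be tested 3 were higher, among them Emb and Itga2, which encodes the integrin CD49b of NK cells. None was lower, and the median ratios were 1.53 in C1 and 1.85 in C2. Of 13 genes of residency and type 1 innate lymphoid cells, none was higher and 5 were lower, of which Itga1 and Gzmc are lower by the rule and Itgae, Cxcr6 and Inpp4b are not part of it. Rgs1 missed the call at ratios of 0.582 and 0.453, and Zfp683 at 0.531 and 0.229. Of 15 transcription factors Tcf7 was higher and none lower. Eomes missed the call at 2.41 and 1.72 (1.46 to 2.03), as did Klf2 at 3.03 and 1.91 and Irf8 at 1.75 and 1.81. Of 12 granule genes Gzmb was lower, besides Gzmc by the rule.

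Many NK genes had ratios near 1. Tbx21 had ratios of 0.963 (0.826 to 1.12) and 0.977 (0.766 to 1.24), Cd69 0.984 and 0.959, and Prf1 0.976 (0.856 to 1.11) and 1.03 (0.883 to 1.20). Tyrobp had 0.881 and 0.867, and Klra8 1.23 and 1.17. No gene was called among 6 Ly49 genes, 11 genes of the CD94/NKG2 and NKR-P1 families, 12 activating receptors and adaptors, or 10 cytokines and chemokines that could be tested. Over all 5525 genes only 0.326% were called higher and 0.543% lower, so lists this short could hold none at those shares. Gzma differed in direction, with ratios of 0.854 (0.789 to 0.924) in C1 and 2.57 (2.30 to 2.87) in C2. The share of barcodes with a Gzma UMI was 30.1% in members and 16.1% in the others in C1, and 27.7% and 13.8% in C2.

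Because the rule cuts at the first UMI, some of these genes were read over steps of Gzmc and Itga1 UMIs. The steps were 0 for members and then 1, 2 to 4, 5 to 9 and at least 10. The steps held 163, 136, 216, 153 and 364 NK barcodes in C1 and 65, 50, 101, 38 and 29 in C2. Eomes was at 372, 288, 215, 134 and 90.2 CPM over the steps in C1 and at 455, 321, 279, 266 and 123 CPM in C2. Emb was at 183, 136, 79.9, 21.5 and 28.3 CPM in C1 and at 345, 245, 161, 43.2 and 42.5 CPM in C2. Both genes were highest in members, and Eomes was lower at each further step in both libraries.

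Tcf7 was at 163, 112, 48.2, 17.9 and 8.30 CPM in C1 and 213, 175, 113, 20.0 and 4.25 CPM in C2. In the opposite direction, Gzmb was at 294, 584, 1038, 2674 and 3992 CPM in C1 and at 570, 607, 1130, 2754 and 4916 CPM in C2. Rgs1 was at 3171, 3981, 4930, 5552 and 6127 CPM in C1 and 1968, 3214, 4506, 4757 and 5048 CPM in C2. For these 5 genes the level at 1 UMI lay between those of the neighbouring steps in both libraries. Not every gene read did so. At 0, 1 and 2 to 4 UMIs, Il18r1 was at 78.7, 83.6 and 25.8 CPM in C2, and Cxcr6 at 35.1, 112 and 107 CPM in C1. Itgae was at 21.3, 8.09 and 57.8 CPM in C2, from 10, 3 and 47 UMIs. Ncr1, a gene of the rule that chose the barcodes of every step, stayed between 581 and 654 CPM in C1. In C2 it was at 906 CPM in members and 629 to 729 at the later steps. Median UMIs per barcode were 6340 at the first and 7538.5 at the last step of C1, and 7337 and 8105 in C2, and the part of depth was not tested.

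**Figure D4:**
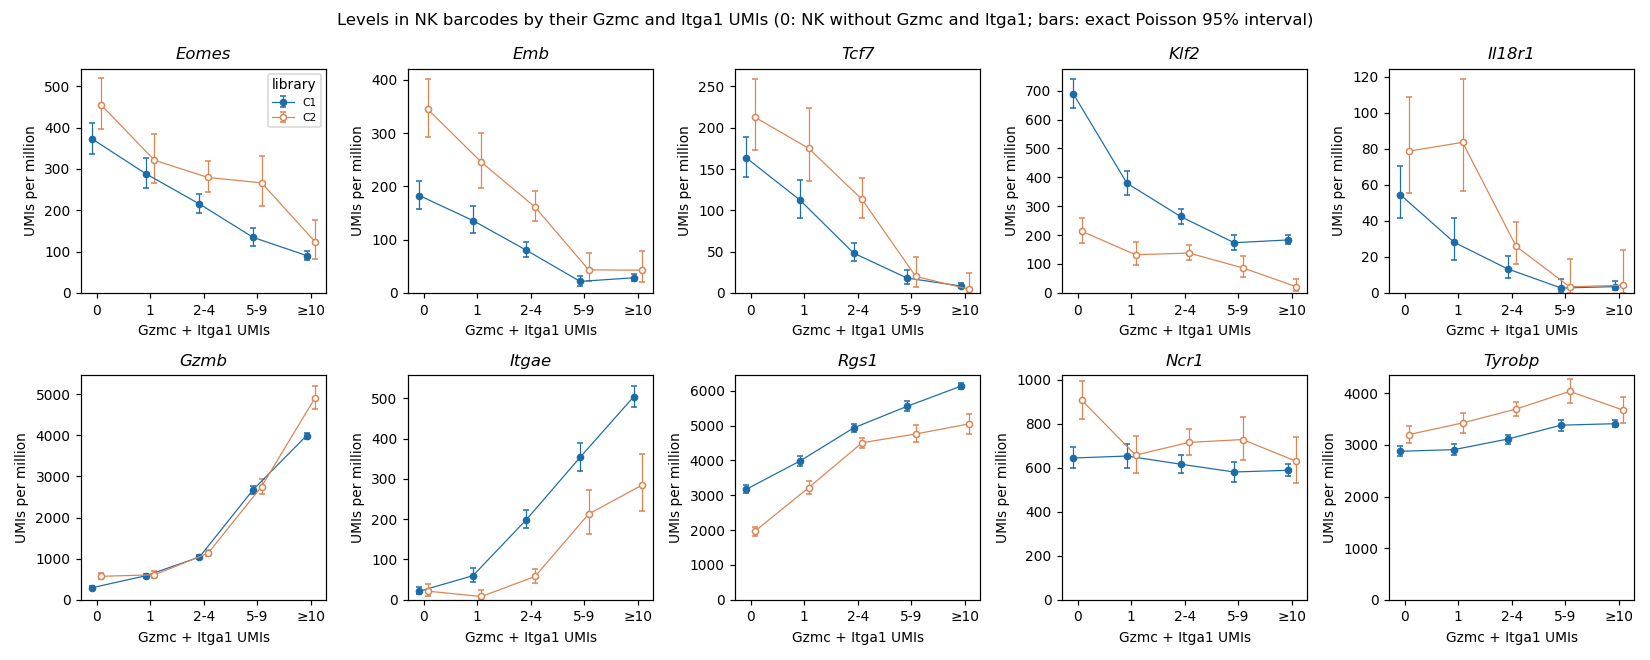
UMIs per 1000000 of 10 genes (linear axes from 0) in NK barcodes of C1 (filled) and C2 (open) by the number of Gzmc and Itga1 UMIs, where 0 are the members, with exact Poisson 95% intervals. Eomes and Tcf7 are highest at 0 and lowest at the last step, Gzmb and Rgs1 the reverse.

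Within the members, C1 and C2 were compared over 4344 genes with at least 50 UMIs. At least 2-fold, 105 genes were higher in C1, 2.42% of those tested, and 48 were lower, 1.10%, around a median ratio of 0.981. Early response genes, which are switched on within minutes of a stimulus or of handling, included 7 of 14 that were higher in C1. Fos was at 1789 CPM in members of C1 and 674 in those of C2, a ratio of 2.65, and Fosb, Jun, Egr1, Ier2, Atf3 and Zfp36 had ratios of 2.08 to 3.33. Of 8 heat shock genes, 3 were higher in C1. Hspa1a had a ratio of 11.4 (3.77 to 56.6), Hspa1b of 7.38, or 26.6 with no Cd3 UMI allowed, and Dnajb1 of 4.48. In members of C2, Hspa1b had 12 UMIs in 2 barcodes, and 83.3% of them came from 1.

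The same genes were read in T cells of each library. The early response list summed to 17486, 9477, 4891 and 7372 CPM in members of C1 to C4, and to 18266, 7210, 3279 and 4565 CPM in T cell barcodes, in the same order of libraries. Nr4a1, induced by antigen receptor and other signals, was at 809, 409, 44.9 and 34.6 CPM in members and 998, 293, 13.7 and 42.2 CPM in T cells. Hspa1b, which encodes an inducible Hsp70, was at 188, 25.5, 0 and 0 CPM in members and 160, 28.2, 1.33 and 1.96 CPM in T cells. Per the labels' protocols glands were digested at 37 °C and lymph nodes only triturated. No label gives the handling of each library, but salivary transcripts were abundant in C1 and C2 and almost absent in C3 and C4. Between C1 and C2 on one side and C3 and C4 on the other, handling and tissue therefore cannot be told apart. C1 and C2 both carried salivary transcripts, and the cause of the difference between them was not tested.

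**Figure D5:**
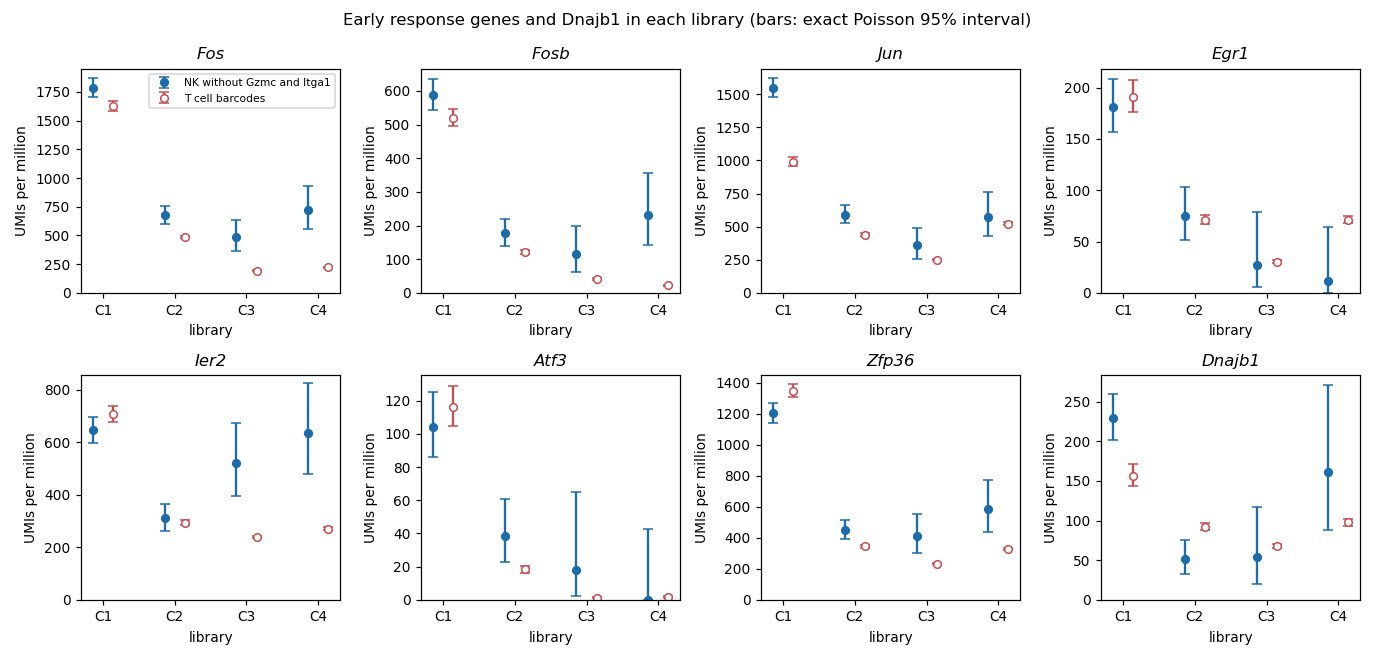
UMIs per 1000000 of 8 early response and heat shock genes (linear axes from 0) in each library, in members (filled, left) and T cell barcodes (open, right), with exact Poisson 95% intervals. Fos is at 1789 in members of C1, against 674 in those of C2.

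Genes of other lists also passed 2-fold between members of C1 and C2. Klf2 had a C1 over C2 ratio of 3.24, Inpp4b of 3.45, and Ppp1r15a, a stress-induced phosphatase regulator, of 3.56. Among genes lower in C1, Crtam had a ratio of 0.399, Tnfsf14 of 0.395 and the lectin-like receptor gene Klrb1a of 0.444. Plac8 had a ratio of 0.0995, from 10.2 CPM in C1 and 102 in C2. Spp1, which encodes osteopontin, had the lowest ratio at 0.0763, but 47.3% of its UMIs in C2 came from 1 barcode. Of 7 salivary genes tested, 6 were at least 2-fold lower in C1 and Klk1 was at least 2-fold higher. Of all 4344 genes, 1.10% were lower and 2.42% higher.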

How the data were processed

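Expression was measured in single CD45+ leukocytes. The deposited matrices hold whole-number UMI counts per gene and barcode, not normalized; per the file headers Cell Ranger 4 wrote them. The submitters' processing notes name STAR 2.7.10a, Cell Ranger 6.1.2 and mm10. Library preparation is given as BD Rhapsody per the labels' protocols and as 10x in the series' design. The T cell receptor samples were not used here. Total counts were 48439860, 44798843, 77819179 and 37902916 UMIs in C1 to C4, with medians of 6224.5, 4939, 8076 and 5203 UMIs over all kept barcodes.

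Counts were summed per class and library and divided by the class total. The members and gene lists were chosen with earlier results of these data known. Genes named were the 5 NK markers, up to 6 members of each list with the highest median level in C1 and C2 plus the member of largest ratio between these, and the 12 highest and 12 lowest ratios of each comparison, leaving out rule, mitochondrial, salivary, erythroid and receptor V, D or J genes. Some of these genes are not reported here. Other genes were named after their values were seen. A side with under 3 counts was set to 3 in ratios. A count of 0 was read against 3 counts, the 1-sided limit, and the 2-sided intervals printed reach higher. T, B and macrophage barcodes were thinned on at most 1000 random barcodes. Doublets were scored with Scrublet in scanpy 1.11.5, which marked 166 barcodes of C1 (2.96%) and 116 of C4 (1.95%). In C2 and C3 it marked 0 and 2 (0.0234%), so few that its automatic threshold may not have worked there, which was not checked. No barcode was removed for it. The ratio step was tested on simulated data. Python 3.11.15, numpy 2.4.6, scipy 1.17.1, pandas 2.3.3 and matplotlib 3.10.9 were used. Promoters and gene positions come from RefSeq tables for GRCm38.p6. No test was made, because no library carries a group.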

Additional observations from a re-analysis of the deposited data

Results flagged for a closer look

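Wfdc12, a gene of a WAP-domain protein, ran in opposite directions. Its ratio of NK barcodes without over with Gzmc or Itga1 was 0.204 in C1, from 10.2 and 49.8 CPM, and 2.27 in C2, from 76.6 and 33.7 CPM. In C1, 72.0% of the 321 UMIs of the barcodes with Gzmc or Itga1 came from 1 barcode, and in C2 the 36 UMIs of those without lay in 16 barcodes. Barcodes too shallow to be kept, of at least 50 UMIs, held 671 and 659 CPM of the gene in C1 and C2.

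Ccl1, a chemokine for CCR8, had a ratio of 3.73 in C1, where all 27 UMIs of the barcodes without Gzmc or Itga1 lay in 1 barcode. In C2 its ratio was 0.0457, set by 3 counts in place of 0 against 240 UMIs, of which 80.4% lay in 1 of 4 barcodes. For both genes the difference between the libraries was not tested, and the libraries carry no group.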

How the results depend on the processing

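No paired analysis was possible because no library could be tied to a sample label and no result comes from a test. The share of NK barcodes without Gzmc and Itga1 at 3395 UMIs per barcode was 25.3% for C1, 40.1% for C2 and 89.5% for C4. Between NK barcodes without and with Gzmc or Itga1, a minimum of 100 UMIs left 9 genes higher and 14 lower, and a minimum of 20 UMIs gave 34 and 70. With a mean over barcodes in place of summed UMIs, 17 of the 18 genes higher and 23 of the 30 lower were still called, and with no Cd3 UMI allowed 12 and 20 were, with 5067 in place of 5525 genes tested. Within the members, a minimum of 100 UMIs gave 50 genes higher and 19 lower in C1, and 20 UMIs gave 300 and 191. The mean over barcodes gave 126 higher and 154 lower there, and the cause was not tested. Of the 58 and 24 ratios recomputed for both comparisons none turned round under the alternatives run; 8 of 522 ratios without over with Gzmc or Itga1 and 1 of 192 C1 over C2 ratios moved, as did 110 of 4956 levels, 62 of them with the mean over barcodes and 30 with no Cd3 UMI. Leaving out barcodes with over 5% salivary UMIs, chosen after seeing the data, removed 1 member of C1 and 6 of C2 and kept 17 of the 18 and 27 of the 30 calls, and 97 of the 105 and 35 of the 48 between C1 and C2. With no Cd3 UMI allowed, 78 of the 105 and 33 of the 48 were shared.

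Levels in C3 and C4 rest on 18 and 16 members. A gene with no UMI in members of C4 has a 95% upper limit of 42.5 CPM, and of 33.1 CPM in C3. No library has a replicate, so the spread between mice is unknown.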

Other observations

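The cell cycle list summed to 794, 636, 844 and 1083 CPM in members of C1 to C4, against 1025, 1731, 1386 and 1046 CPM in T cell barcodes, and Mki67, a protein of dividing cells, was at 4.62, 29.8, 8.97 and 11.5 CPM. The interferon response list summed to 532, 657, 494 and 645 CPM in members, against 1953, 1986, 1235 and 1478 CPM in T cell barcodes.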
